A study of Mus musculus with 4 samples.

Results

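The imprinted Dlk1-Dio3 region of mouse chromosome 12 carries one of the largest groups of miRNA hairpins in the genome, and its miRNAs were at or near 0 counts in resting bone marrow-derived macrophages (BMDMs) of every genotype sequenced. Members were taken by precursor name from a fixed list of 44 hairpins, all of which the count table held. Together they contribute 88 mature arms of the 1979 mature miRNAs in the table, and 44 of its 1235 hairpins. Only 8 of the 88 arms had any count in any of the 4 libraries, the cluster summed to 12 counts over all of them, and no arm passed 2 counts in a single library.

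Small RNA was sequenced from BMDMs of wild-type mice (WT A and WT B, 2 separate cultures), from mice lacking mir-146a (KO, 1 library) and from mice whose mir-146a carries the 3′F change (1 library), in which the 3′ portion of the mature miRNA is exchanged with that of the opposite strand of its hairpin. All mice were of a mixed 129/B6 background and 6 to 7 months old, with 3 per genotype, and it is not stated whether the RNA of several mice was combined in a library. Marrow was grown for 8 to 9 days in M-CSF at 10 ng/ml, the growth factor that drives macrophage differentiation, and the cells were harvested 16 h after a change to medium without LPS, so no library comes from stimulated cells. Both alleles were made by targeting in embryonic stem cells and act in all cells, and the study asked whether the 3′ sequence of miR-146a matters for its function.

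The region is controlled by genomic imprinting, in which a gene is read from only one parental chromosome. Dlk1, which encodes a Notch-related membrane protein, Rtl1, a retrotransposon-derived gene needed in the placenta, and Dio3, which encodes a deiodinase that inactivates thyroid hormone, are read mainly from the paternal chromosome. The noncoding RNAs Meg3, Rian and Mirg, and with them the miRNAs, are read from the maternal chromosome in the opposite parental pattern, and these miRNAs are best known from the embryo, the placenta and the brain. A miRNA hairpin gives a 5p and a 3p mature arm, and bases 2 to 8 of a mature arm, its seed, are the main part that pairs with target mRNAs.

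The mature sequences of the 8 arms with any count are shown first, since they are the only members for which a read was assigned. Sequences are from RefSeq (GRCm38.p6), are written 5′ to 3′, and carry the seed in capitals.
miR-493-5p: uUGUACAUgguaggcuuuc
miR-127-3p: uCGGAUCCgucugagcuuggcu
miR-341-3p: uCGGUCGAucggucggucggu
miR-379-5p: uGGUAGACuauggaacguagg
miR-411-3p: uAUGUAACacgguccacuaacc
miR-494-3p: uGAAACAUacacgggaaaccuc
miR-381-3p: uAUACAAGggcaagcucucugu
miR-409-3p: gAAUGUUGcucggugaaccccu

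The next 6 arms are well-known members, chosen for that and whatever their values, and all were at 0 counts in all 4 libraries.
miR-433-3p: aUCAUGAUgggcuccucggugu
miR-370-3p: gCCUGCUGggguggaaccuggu
miR-495-3p: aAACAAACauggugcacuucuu
miR-376a-3p: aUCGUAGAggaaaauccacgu
miR-134-5p: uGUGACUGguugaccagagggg
miR-410-3p: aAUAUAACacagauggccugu

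The 8 arms with counts have 8 different seeds. Each differs by 8 to 10 base edits from the closest of 228 mature miRNAs outside the cluster that had a RefSeq sequence and a mean of at least 10 RPM (reads per 1000000 counts of the library), of 251 at that level. The nearest such sequence to miR-127-3p was miR-700-5p at 8 edits, and the nearest to miR-494-3p was miR-101b-3p at 10 edits. Of the 88 arms, 84 had a RefSeq sequence, and these hold 81 seeds. Only 3 seeds are shared within the cluster, each by 2 arms: miR-379-3p with miR-411-3p, miR-410-5p with miR-494-5p, and miR-376b-5p with miR-376c-5p.

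All 44 hairpins were found by name in the GENCODE vM21 annotation of GRCm38, on the plus strand of chromosome 12 between 109563692 and 109743795, a span of 180.1 kb. They fall into 4 groups from the Dlk1 side to the Dio3 side. The first group, 6 hairpins within or just after Meg3 (chr12:109541001-109571726), starts with mmu-mir-770 in a Meg3 exon. The second, 5 hairpins, lies opposite an exon of Rtl1 (chr12:109589193-109600330, minus strand), and its transcript is the antisense RNA to Rtl1. The third consists of mmu-mir-341 and mmu-mir-370 in introns of Rian (chr12:109603940-109661716), a host gene of small nucleolar RNAs. The fourth, 31 hairpins from mmu-mir-379 to mmu-mir-410 over 34.7 kb, is the Mirg group, and 11 of the 31 overlap Mirg as annotated (chr12:109729764-109749460). The build behind the count table is not given in the sources used here, so these positions come from the match by name.

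**Figure D1:**
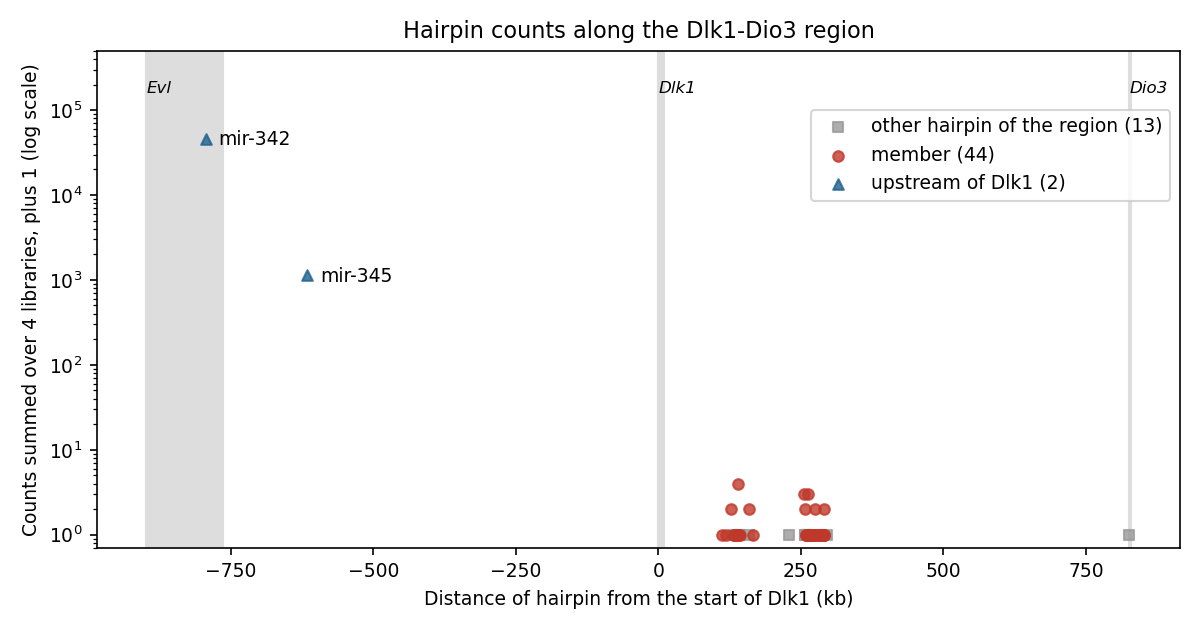
Counts summed over the 4 libraries, plus 1 and on a log axis, for each hairpin against its distance in kb from the start of Dlk1, with the gene spans of Evl, Dlk1 and Dio3 shaded. The 44 members (circles) and the 13 other hairpins of the region (squares) lie at 0 to 3 counts, while mir-342 and mir-345 (triangles), upstream of Dlk1, reach 46100.0 and 1129 counts.

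The targeted miRNA followed the labels. miR-146a-5p reached 6253 RPM (WT A) and 5485 RPM (WT B) in the wild-type libraries, against 13.4 RPM with the gene deleted and 6.64 RPM in 3′F, where the altered sequence replaces it. Library totals were 17073442 counts for WT A, 11410940 for WT B, 19087640 for KO and 16194595 for 3′F, and 897 to 942 mature miRNAs had at least 1 count in a given library. The 5 miRNAs taken as macrophage and hematopoietic markers, among them miR-223-3p and miR-142a-3p, summed to between 2893 and 3711 RPM per library. The lowest of them were miR-155-5p, at 55.2 to 71.3 RPM, and miR-511-3p, at 65.6 to 80.8 RPM. At these depths 1 count equals 0.0586 RPM for WT A, 0.0876 RPM for WT B, 0.0524 RPM for KO and 0.0617 RPM for 3′F. A miRNA at 0 counts could have a level of up to 3 counts, which is 0.176, 0.263, 0.157 and 0.185 RPM in the same order.

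Over the whole table, 1117 of 1979 mature miRNAs (56.4%) had at least 1 count in any library, against 8 of the 88 members (9.09%). A mean of at least 10 RPM was reached by 251 of 1979 (12.7%) and by 0 members. Low miRNA numbers belong mostly to miRNAs named early, so miRNAs numbered below 1000 outside the cluster were set beside the members, all of which carry such numbers. Of those 769 miRNAs, 497 had a count (64.6%), 221 reached 10 RPM (28.7%), and the median count summed over the libraries was 12, while the median member was at 0. Among the 1122 miRNAs numbered 1000 and above, 612 had a count (54.5%) and the median was 1. Both sets include miRNAs of the same region that are not members, described below, all at 0. The members thus had a smaller share with counts than either set, as a description of these libraries and with no test.

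**Figure D2:**
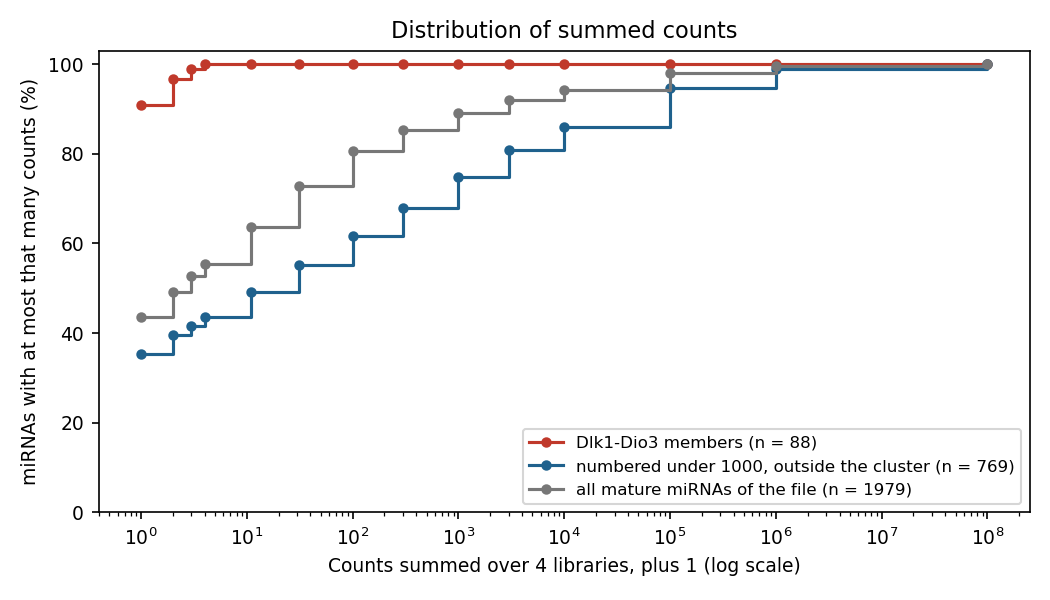
Percent of mature miRNAs (vertical axis) whose counts summed over the 4 libraries are at most the value on the horizontal axis, which is counts plus 1 on a log scale, evaluated at the marked points. Of the 88 members, 90.9% are at 0 and 100% are at or below 3 counts, whereas 35.4% of the 769 miRNAs numbered below 1000 outside the cluster and 43.6% of all 1979 are at 0.

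In the group antisense to Rtl1, only mmu-mir-127 had reads. miR-127-3p (chr12:109592888-109592909, opposite an Rtl1 exon), which is fully complementary to Rtl1 mRNA, had 1 count each in WT A, WT B and 3′F, and 0 counts in KO. It was the member seen in the most libraries, 3 of 4, and its 3 counts were the highest sum of any member. miR-127-5p was at 0 throughout. The other 4 hairpins of the group, mmu-mir-431, mmu-mir-433, mmu-mir-434 and mmu-mir-136, were at 0 in all libraries on both arms, miR-433-3p included.

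Around Meg3, 1 of 12 arms had a count. miR-493-5p (chr12:109580243-109580261, in no annotated host gene) had 1 count in WT A and 0 in WT B, KO and 3′F. The remaining 5 hairpins, mmu-mir-770, mmu-mir-673, mmu-mir-337, mmu-mir-540 and mmu-mir-665, had none. Within Rian, miR-341-3p (chr12:109611556-109611576, in an intron) likewise had 1 count in WT A and 0 elsewhere. mmu-mir-370, the other Rian hairpin, was at 0 on both arms.

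The Mirg group holds 62 of the 88 arms, and 5 of them had counts, 7 counts in all. WT A and WT B had 2 counts each, KO had 0 and 3′F had 3. miR-379-5p (chr12:109709065-109709085), from the hairpin that opens the group, had 2 counts in 3′F and 0 in WT A, WT B and KO. Those 2 counts, 0.123 RPM, were the highest value of any member in any library, and they lie under the limit of 3 counts. miR-494-3p (chr12:109715367-109715388) had 1 count each in WT A and 3′F and 0 counts in WT B and KO, and was the only other member seen in more than 1 library. miR-411-3p (chr12:109710225-109710246) had 1 count in WT A alone. miR-381-3p (chr12:109726870-109726891) and miR-409-3p (chr12:109743204-109743225, in a Mirg intron) each had 1 count in WT B alone. The annotation gives no host gene for mmu-mir-379, mmu-mir-411, mmu-mir-494 or mmu-mir-381, which lie before the annotated start of Mirg. The 26 other hairpins were at 0, among them mmu-mir-134, whose 5p arm is known in neurons for repressing Limk1 in dendritic spines, and mmu-mir-495, mmu-mir-376a and mmu-mir-410.

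**Figure D3:**
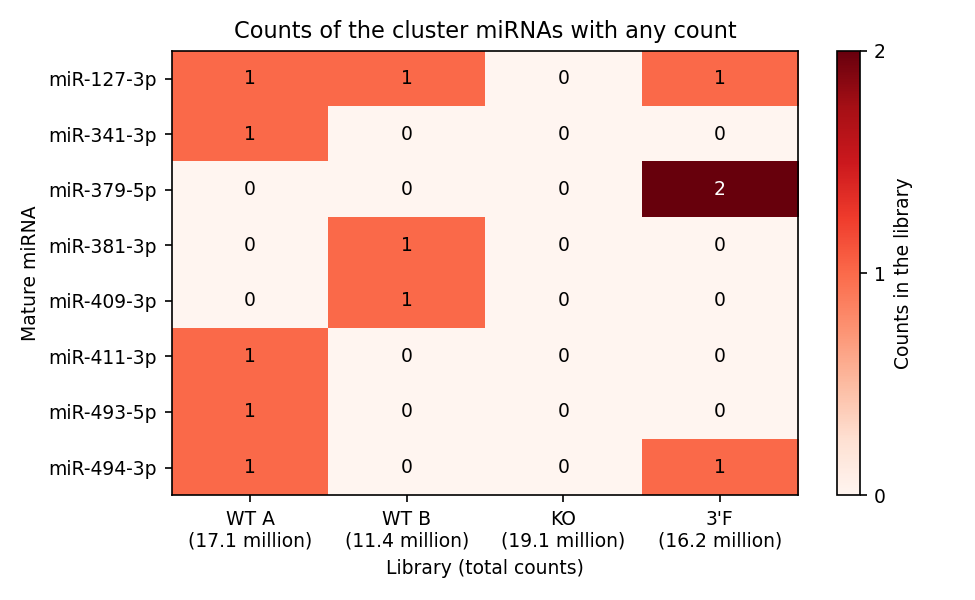
Counts in each library (columns, with total counts below the names) for the 8 mature miRNAs of the cluster that have any count (rows), with color from 0 to 2 counts. The KO column is 0 throughout, miR-127-3p is at 1 count in the other 3 libraries, and the single cell at 2 is miR-379-5p in 3′F.

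Across the whole cluster, 36 of 44 hairpins and 80 of 88 arms had no count. No hairpin had counts on both arms, 6 of the 8 arms with counts were 3p arms (9 of the 12 counts), and 6 of the 8 were seen in 1 library alone. None was seen in all 4. An arm with a summed count of 1 can be seen in 1 library only. The shares of such arms over all miRNAs were not computed, so these numbers only describe the 8 arms. The number of arms with a count was 5 for WT A, 3 for WT B, 0 for KO and 3 for 3′F. The WT cultures had miR-127-3p in common and no other member. Each of these arms had 1 count per WT library, and no overlap was computed for other miRNAs. The small overlap is therefore not read as a trait of the members.

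The summed level of the cluster was 0.293 RPM for WT A (5 counts, exact 95% Poisson interval 0.0951 to 0.683) and 0.263 RPM for WT B (3 counts, 0.0542 to 0.768). It was 0 for KO (0 counts, upper bound 0.193 RPM) and 0.247 RPM for 3′F (4 counts, 0.0673 to 0.632). The WT mean was 0.278 ± 0.0212 RPM (SD, n = 2). The intervals of all 4 libraries overlap, and they cover counting error only. Reads of a PCR-amplified library do not each stand for a molecule of their own, and cultures can differ by more than counting error.

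With a single library for KO and for 3′F, genotypes could not be tested against each other. The ratio of the cluster sum in 3′F to that in both WT libraries together was 0.879, with an exact conditional 95% interval of 0.194 to 3.28, and WT B to WT A gave 0.898 (0.139 to 4.61). Neither ratio could be told from 1 at this depth. The ratio of KO to both WT libraries together was 0, with an upper bound of 0.874. That bound was 0.976 against WT A alone, 1.45 against WT B alone and 1.29 against 3′F, so whether it lay under 1 depended on the library it was set against. It rests on 8 counts in WT and describes these libraries, not the genotypes.

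The KO library was the deepest, with 29.9% of all counts. Of 226 miRNAs outside the cluster with a summed count above 0 and no higher than the 3 counts of the top member, 92 had a count in KO (40.7%), against 97 (42.9%), 79 (35.0%) and 78 (34.5%) for WT A, WT B and 3′F. KO held 25.7% of the counts of this set, and 0 of the 12 counts of the cluster. With a single KO library and 12 counts, the reason for the 0 in KO was not tested.

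Changes were counted on log2(RPM + 1) among miRNAs with a mean of at least 10 RPM, where a library lay 2-fold or more above both WT libraries or 2-fold or more below both. It was met in KO by 9 of 251 miRNAs (3.59%) and in 3′F by 2 of 251 (0.797%). No member reached the level at which it is counted, so none could be called.

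On the Dlk1 side outside the cluster, mir-342 was abundant and the nearer mir-345 was at a lower level. mmu-mir-342 (chr12:108658620-108658718), in an intron of Evl, which encodes an actin regulator, lies 794 kb before the start of Dlk1 (chr12:109452823-109463336). Its main arm is shown for comparison with the members above, again with the seed in capitals.
miR-342-3p: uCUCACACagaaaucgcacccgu

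miR-342-3p had 12782 counts (749 RPM) for WT A, 8357 (732 RPM) for WT B, 8849 (464 RPM) for KO and 12210 (754 RPM) for 3′F. Its counts were 2556 times (WT A), 2786 times (WT B) and 3052 times (3′F) the sum of the whole cluster, which had no count in KO. These folds compare read counts of different sequences, and adapter ligation favors some sequences over others, so they are not ratios of molecules. mmu-mir-345 (chr12:108836973-108837068, in an exon of Slc25a47, a mitochondrial carrier gene) summed to 17.2, 19.98, 14.8 and 20.1 RPM in WT A, WT B, KO and 3′F. The 2 hairpins together gave 829 ± 5.87 RPM in WT (SD, n = 2), 531 RPM in KO and 833 RPM in 3′F, so KO was below both WT libraries, with no replicate check.

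The absence or near absence of counts extended beyond the 44 hairpins. RefSeq places 58 hairpins between the start of Dlk1 and the end of Dio3, and the count table held 56 of them, 43 of which are members. mmu-mir-666, the remaining member, was placed there by the GENCODE annotation. The 13 others give 23 further mature miRNAs, among them those of mir-299a, mir-496a and mir-1197 near the Mirg group and mir-1247 next to Dio3, and all 23 were at 0 in all 4 libraries.

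Some other imprinted loci, and other large groups of hairpins, had higher counts. Of the 10 mature miRNAs from mir-675, mir-483, mir-335, mir-296 and mir-298, all linked to imprinted genes, 5 had counts, and they summed to 13.8 RPM (WT A), 15.9 RPM (WT B), 55.4 RPM (KO) and 22.9 RPM (3′F). Nearly all of this came from mir-296 and mir-298, which lie together in the Gnas region, while mir-483 and mir-675 were at 0 and mir-335 had 0, 3, 1 and 2 counts in WT A, WT B, KO and 3′F. These 3 of the 5 hairpins were thus as near to 0 as the cluster. The precursors named mir-297, mir-466, mir-467 and mir-669, families that form a large cluster in an intron of the imprinted gene Sfmbt2 and have copies elsewhere, gave 80 mature miRNAs. Of these, 67 had counts, and they summed to 86.3, 102, 83.4 and 93.6 RPM in WT A, WT B, KO and 3′F. The miR-17-92 hairpins, a polycistron of proliferating and hematopoietic cells, summed to 6151, 8276, 6112 and 5599 RPM, and all 12 of their mature miRNAs had counts in at least 1 library. Reads that fit several precursors are shared out in the last 2 sets, so their sums are uncertain, whereas no member count was fractional. The Sfmbt2 sum also takes 1 line for each of the 80 mature miRNAs, which have 157 lines. It leaves out the counts on the other lines and so understates the level of these families.

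**Figure D4:**
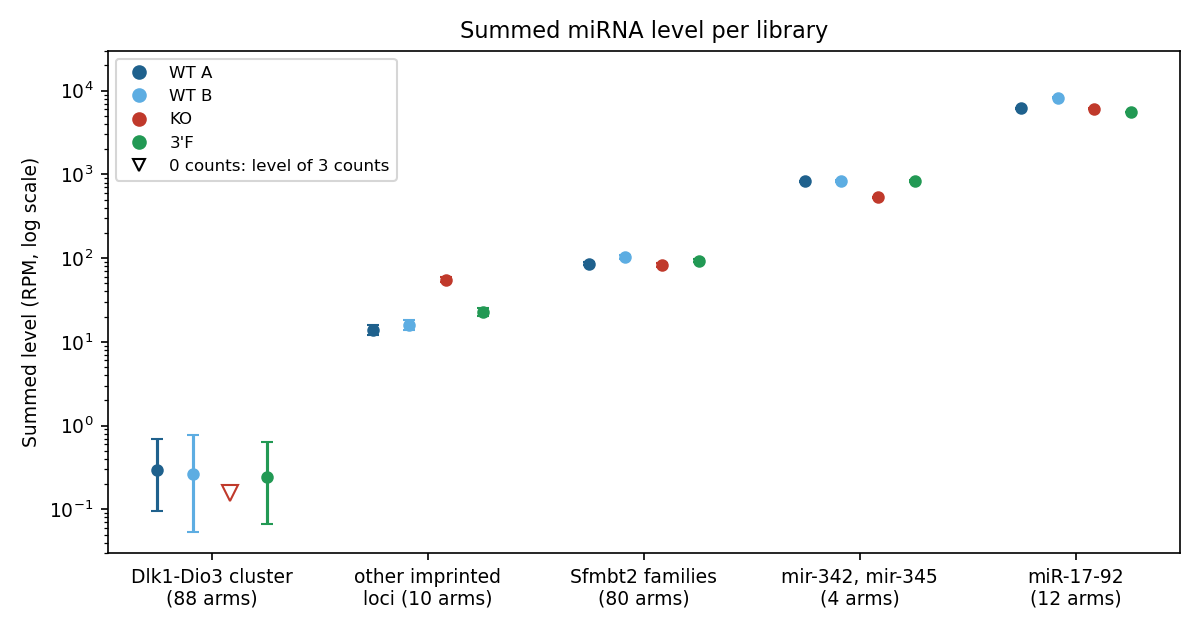
Summed level in RPM (log axis) per library for the Dlk1-Dio3 cluster and 4 comparison sets, with the number of mature miRNAs in each. Points are single libraries, bars are exact 95% Poisson intervals (counting error only), and the open triangle marks the level of 3 counts in KO, where the cluster had 0. The cluster lies at or below 0.293 RPM in every library, and the next lowest set starts at 13.8 RPM.

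The seeds of 2 members are each also carried by a miRNA from another locus with a mean of at least 10 RPM. No other seed of the cluster is found among the 228 miRNAs outside it with a RefSeq sequence and that level. The pairs are shown because they share bases 2 to 8, with 9 base edits between the whole sequences of each pair.
miR-329-3p: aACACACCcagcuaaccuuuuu
miR-362-3p: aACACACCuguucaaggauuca
miR-412-3p: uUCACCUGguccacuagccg
miR-1983: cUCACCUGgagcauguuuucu

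miR-329-3p, of the Mirg group, was at 0 in all libraries, while miR-362-3p, from the X chromosome, had 81.5 RPM (WT A), 67.8 RPM (WT B), 107 RPM (KO) and 61.1 RPM (3′F). miR-412-3p, of the same group, was at 0, while miR-1983 had 44.6, 49.4, 30.6 and 43.7 RPM in the same order. The other 82 members with a known sequence share no seed with any of those 228 miRNAs.

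Each list of markers of other cell types summed to less than the macrophage and hematopoietic list on the lines kept. Most of these markers were not absent. Each value comes from 1 deposited line per miRNA, the one with the highest summed count. Counts shared out to other lines of the same miRNA, as for the fractional miR-9-5p and miR-199a-3p, are left out. The levels of such markers are therefore understated. The 6 stromal markers, among them miR-199a-3p and miR-143-3p, summed to 10.6 RPM (WT A), 10.98 RPM (WT B), 7.77 RPM (KO) and 7.44 RPM (3′F). Within them, miR-143-3p had 4.74, 4.91, 2.10 and 2.22 RPM and miR-145a-5p had 3, 2, 0 and 0 counts in that order, whereas miR-199a-3p had 3.18, 3.71, 3.63 and 3.21 RPM and miR-199b-5p had 3, 3, 5 and 4 counts. Of 3 neuronal markers, miR-124-3p was at 0 in all libraries, and the other two, the arms of miR-9, summed to between 3.55 and 5.32 RPM. miR-126a-3p, an endothelial marker also found in hematopoietic progenitors, lay between 9.82 and 13.1 RPM. The 3 muscle markers summed to between 0.314 and 0.803 RPM, the hepatocyte marker miR-122-5p lay between 1.11 and 1.84 RPM, and the lymphoid marker miR-150-5p between 1.54 and 2.93 RPM. The 3 erythroid markers summed to 93.2 and 94.1 RPM in the WT libraries, 36.5 RPM in KO and 43.3 RPM in 3′F. Among them miR-486a-5p had 74.1 (WT A), 63.5 (WT B), 32.3 (KO) and 35.2 RPM (3′F). From the macrophage and hematopoietic list, miR-155-5p had 71.3 RPM in WT A and 70.3 RPM in WT B. miR-511-3p, of the same list, had 76.8 and 65.6 RPM there. The cluster, at up to 0.293 RPM, lay below the summed level of each of these lists in the same library, and whether a minority of other cells gave the 12 counts was not tested. In a culture, fewer cells of a type and less RNA per cell cannot be told apart.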

How the data were processed

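Small RNA libraries of 18 to 35 base inserts from 4 BMDM cultures were analysed. The authors deposited estimated counts per miRNA line, fractional where a read fitted several miRNAs, and RPM, which equalled the count per 1000000 of the column's sum. The submitters' processing notes name cutadapt 1.8.3; the aligner, mismatch allowance, genome build and miRNA release are not given in the sources used here. Ligation efficiency depends on sequence, which affects levels compared between miRNAs.

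For each mature miRNA with several lines, the line with the highest summed count was kept (1979 of 2129 lines). Counts on its other lines were left out, so the level of a miRNA with several lines can be understated. Sums, exact Poisson intervals (95%) and exact conditional binomial intervals for ratios were computed in Python 3.11.15 with scipy 1.17.1, and no p-value was computed. Functions were tested on simulated data. Scaling alternatives used edgeR 4.0.16 TMM factors and DESeq2 1.42.0 size factors on rounded counts, with R 4.3.3.

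The members and lists were chosen with earlier results of these data known, and marker and comparison lists come from general knowledge. Every member with a count is named, with 6 well-known members whatever their values. Members of the same seed as a miRNA with a mean of at least 10 RPM, mmu-mir-666 and hairpins named at 0 were added after values were seen. Other assays of the study were not used.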

Additional observations from a re-analysis of the deposited data

How the results depend on the processing

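Of 33 alternative values, 28 kept within the limits set for each result and 5 did not. The limits were the WT SD for the level, the main interval for the ratios and a fixed fold for the number of arms. Many of the 28 could not have moved or had wide limits, so this count is no measure of robustness. With library totals over 1 line per miRNA, the WT mean of the cluster sum was 0.303 RPM, and with the Mirg group alone, which drops hairpins, it was 0.146 RPM. With TMM factors it was 0.274 RPM, and without either WT library 0.263 to 0.293 RPM. The number of arms detected fell from 8 to 1 when 3 summed counts were required and to 2 when counts in 2 libraries were required, both stricter by construction, and without either WT library it was 5 to 6. The 5 came without WT A, which holds 3 arms seen nowhere else. The ratio of KO to WT was 0 under all 8 alternatives, which was fixed by the 0 counts in KO. Its upper bound rose from 0.874 to 1.45 without WT A, 0.976 without WT B and 2.26 with the Mirg group alone. The ratio of 3′F to WT ranged from 0.843 to 1.32. No member reached the 1 RPM minimum, so the count of 2-fold changed members, 0 at every pseudocount and minimum tried, says nothing of stability. Taking every hairpin between Dlk1 and Dio3 by coordinates, an alternative chosen after seeing the data, changed no value, since the hairpins it added were all at 0. No paired analysis was possible because KO and 3′F have a single library, so that at most 1 replicate letter is shared with WT. With 0 to 5 cluster counts per library, depth limits all of these values.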
